A study of Mus musculus with 6 samples.

Results

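The tails and 3′ ends of 8 mitochondrial transcripts were measured by mTAIL-seq in naive CD4 T cells of mice. They are 6 mRNAs and 2 ribosomal RNAs of the mitochondrial genome, chosen by their Ensembl IDs. The mRNAs are mt-Co1 (ENSMUSG00000064351), mt-Co2 (ENSMUSG00000064354), mt-Co3 (ENSMUSG00000064358), mt-Cytb (ENSMUSG00000064370), mt-Atp6 (ENSMUSG00000064357) and mt-Atp8 (ENSMUSG00000064356). The ribosomal RNAs are mt-Rnr1 (ENSMUSG00000064337) and mt-Rnr2 (ENSMUSG00000064339). Of the 7282 gene IDs linked to at least 1 tag, 7 were members, and the eighth, mt-Atp8, had 0 tags. A tag is a group of reads from 1 RNA 3′ end, and mTAIL-seq joins a hairpin adaptor to that end, cuts the RNA with RNase T1, pulls the ends down and reads each with its poly(A) tail.

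The cells were sorted as TCRb+ CD4+ CD25- with high CD62L and low CD44. WT libraries (n = 3) came from littermate control mice with the floxed alleles Btg1f/f Btg2f/f, and DKO libraries (n = 3) from mice of genotype Btg1f/f Btg2f/f-CD4-Cre. Both groups thus carried the floxed alleles, and Cre, driven by a T cell promoter, set them apart. Nothing in the sources used here gives the age or sex of the mice. The series text speaks of 3 replicates per genotype and the growth protocol of 2 pairs of mice, so the p-values describe library-to-library spread that may partly be technical. Sorted cells were measured in bulk, so fewer cells and less RNA per cell cannot be told apart.

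BTG1 and BTG2 are adaptor proteins that bring the CCR4-NOT deadenylase to cytoplasmic mRNAs. Mitochondrial RNAs are made, cut out of long precursors and tailed inside the organelle, where a poly(A) polymerase of its own, Mtpap, adds the A residues. The mRNAs encode core subunits of the respiratory chain and of ATP synthase, whereas the ribosomal RNAs build the mitochondrial ribosome and are known to carry only short A extensions. The comparison of WT with DKO cells here asks whether the ends and tags of these organelle RNAs differed in cells lacking the adaptors.

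RefSeq (GRCm38.p6) places the members on chromosome MT. The small-subunit ribosomal RNA mt-Rnr1 lies at 70-1024 and the large-subunit ribosomal RNA mt-Rnr2 at 1094-2675. Of the subunits of cytochrome c oxidase (complex IV), mt-Co1 lies at 5328-6872, mt-Co2 at 7013-7696 and mt-Co3 at 8607-9390. The ATP synthase subunits mt-Atp8 (7766-7969) and mt-Atp6 (7927-8607) overlap, and mt-Atp6 shares base 8607 with mt-Co3. The gene of cytochrome b, the subunit of complex III, lies at 14145-15288. The annotated lengths of mt-Cytb (1144 bases) and mt-Co3 (784 bases) leave 1 base after the last whole codon. In such mitochondrial mRNAs the added A residues complete the stop codon.

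The end strings listed for mt-Rnr1 tags are shown because most untailed tags of this RNA listed a single A, and a smaller set listed a longer string that ended in A. The strings come from the deposited tag tables, in DNA letters 5′ to 3′. In the first 3, from untailed tags, the capital marks the last base. In the last 3, from tailed tags, the capitals mark the final run of A.
mt-Rnr1 end 1: gtgtgcttggaataatA
mt-Rnr1 end 2: cttggaataatA
mt-Rnr1 end 3: gagtgtgcttggaataatA
mt-Rnr1 tailed end 1: gtgtgcttggaataatAAA
mt-Rnr1 tailed end 2: gtgtgcttggaataatAAAA
mt-Rnr1 tailed end 3: gtgtgcttggaataatAAAAAAAAA
The first was listed for 43 untailed tags in all 6 libraries, the second for 10 in 4 libraries and the third for 7 in 3 libraries. They share the bases tggaataatA, with which 67 of the 74 untailed strings of at least 12 bases ended. The tailed strings were rarer, with 3 tags, 1 tag and 1 tag. They differ from end 1 only in the length of the closing A run. Their lengths were listed as 3, 4 and 15 nt before mapping and as 6, 7 and 15 nt after it. The string of tailed end 3 closes with fewer A than its listed length of 15 nt. Which of the closing A residues are encoded was not tested.

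Depth ranged from 5199 to 25556 linked tags per library, out of 22311 to 97097 mapped tags. In every library most mapped tags were linked to no gene ID and entered no share given here. Libraries numbered 3 of both genotypes stood apart, with 26.4% (WT) and 22.9% (DKO) of linked tags untailed against 5.13% to 6.98% in the other 4. The members made up 14.5% and 10.9% of tag-to-ID links in these 2 libraries, and 3.85% to 5.01% in the others. Differences between genotypes in tail length, untailed share, U share and tag level are therefore also given within the libraries numbered 1 and 2 and within those numbered 3. The genes named by the marker lists for the sorted cells, and Btg1 and Btg2 themselves, were not analysed here because the IDs carry no symbols.

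The tags were spread unevenly over the members. Over all 6 libraries mt-Rnr2 had 4218 tags, mt-Rnr1 1026, mt-Cytb 498 and mt-Co1 116. Few tags were linked to the remaining mRNAs: mt-Atp6 had 8 tags, mt-Co3 had 7 and mt-Co2 had 1. All 7 tags of mt-Co3 were also linked to mt-Atp6, whose gene it abuts, and carried tails of 53 to 85 nt. The 1 tag of mt-Atp6 alone had a tail of 58 nt and the 1 tag of mt-Co2 a tail of 34 nt. For mt-Atp8, 0 of 93621 linked tags allows up to 0.320 tags per 10000. That limit is for 3′ ends linked to mt-Atp8, whose annotated end lies inside mt-Atp6, and says nothing of the level of its RNA. These numbers count 3′ ends caught by the assay, not RNA per length, so levels were not compared between genes.

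The mRNAs mt-Cytb and mt-Co1 carried long tails and few untailed ends, and both ribosomal RNAs carried short tails and many untailed ends. A tag counted as tailed from 5 nt, and a member's tail length in a library is the geometric mean over its tailed tags. For mt-Cytb the mean was 68.0, 69.9 and 59.2 nt in WT replicates 1 to 3, and in DKO replicates 1 to 3 it was 71.4, 72.3 and 63.7 nt. For mt-Co1, the catalytic subunit of cytochrome c oxidase, it was 41.6, 39.5 and 36.1 nt in WT, against 43.6, 49.4 and 51.8 nt in DKO. In every library mt-Cytb was above mt-Co1, and mt-Co1 above both ribosomal RNAs.

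For mt-Rnr1 the mean tail was 15.4, 17.7 and 10.97 nt in WT, against 13.3, 15.2 and 9.29 nt in DKO. For mt-Rnr2 it was 10.3, 9.83 and 8.24 nt in WT, against 10.4, 10.9 and 7.80 nt in DKO. Both ribosomal RNAs had their shortest mean in the library numbered 3 of each genotype, as did mt-Cytb. Of the 44 IDs that had 10 or more tailed tags in each library, mt-Rnr2 had the shortest and mt-Rnr1 the next shortest mean, and mt-Cytb stood at rank 31.

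Set side by side within libraries, mt-Cytb tails were longer than those of mt-Rnr1 by 53.8 nt ± 3.61 (SD, n = 6 libraries; range 48.2 to 58.1). They were longer than those of mt-Rnr2 by 57.8 nt ± 3.95. For mt-Co1 the difference was 30.03 nt ± 7.47 from mt-Rnr1 and 34.1 nt ± 6.06 from mt-Rnr2, resting on 5 to 36 mt-Co1 tags per library. Each difference had the same sign in 6 of 6 libraries. The two-sided exact sign-flip permutation test over libraries gave p = 0.03125 for each, the smallest 6 libraries allow. The mt-Cytb pairs were planned. The mt-Co1 pairs were not, since mt-Co1 had fewer than the planned 10 tailed tags in DKO replicate 3. No p-value was adjusted over the 6 pairs compared.

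Within each kind of RNA the members differed too. The mt-Cytb mean exceeded that of mt-Co1 by 23.7 nt ± 6.42 (SD, n = 6; range 11.97 to 30.3). The mt-Rnr1 mean exceeded that of mt-Rnr2 by 4.05 nt ± 2.26 (range 1.49 to 7.86). Both had the same sign in 6 of 6 libraries (exact sign-flip permutation p = 0.03125), and neither pair was planned. With medians the difference of the ribosomal RNAs was 2.33 nt (exact permutation p = 0.25), while the other 5 pairs kept p = 0.03125 (exact permutation). The 3 pairs with mt-Rnr1 also moved with lengths before mapping, as given with the short tails.

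The distributions showed how the members differed in shape. Of 484 tailed mt-Cytb tags, 478 had at least 30 nt and 0 fell in the class of 5 to 9 nt, and the longest tail had 169 nt. The median mt-Cytb tail was 62 to 71 nt. Its upper quartile was 87.8 to 94 nt in the 4 libraries numbered 1 and 2, but 68 and 70.3 nt in those numbered 3, while its 10th percentile was 45.9 to 50.2 nt in all 6. The libraries thus differed mainly among the longest mt-Cytb tails. The mt-Co1 tails spanned 7 to 74 nt, with 10 of 111 shorter than 30 nt.

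Very short tails were frequent on the ribosomal RNAs, beside some long ones. The class of 5 to 9 nt held 54.8% to 77.8% of tailed mt-Rnr2 tags and 43.3% to 77.8% of tailed mt-Rnr1 tags. For mt-Rnr2 the commonest lengths were 6 nt (697 tags), 7 nt (408) and 5 nt (205) among 2613 tailed tags. For mt-Rnr1 they were 7 nt (74 tags) and 6 nt (46) among 237. A tail of 30 nt or more was carried by 191 mt-Rnr2 tags and 58 mt-Rnr1 tags. In mt-Rnr1 such tails were 36.7%, 36.7% and 15.9% of tailed tags in WT and 16.98%, 30.2% and 14.8% in DKO. In mt-Rnr2 they were 8.92%, 8.86% and 2.50% in WT, against 10.1%, 11.4% and 1.67% in DKO. The lowest share of each genotype was in the library numbered 3 for both RNAs.

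**Figure D1:**
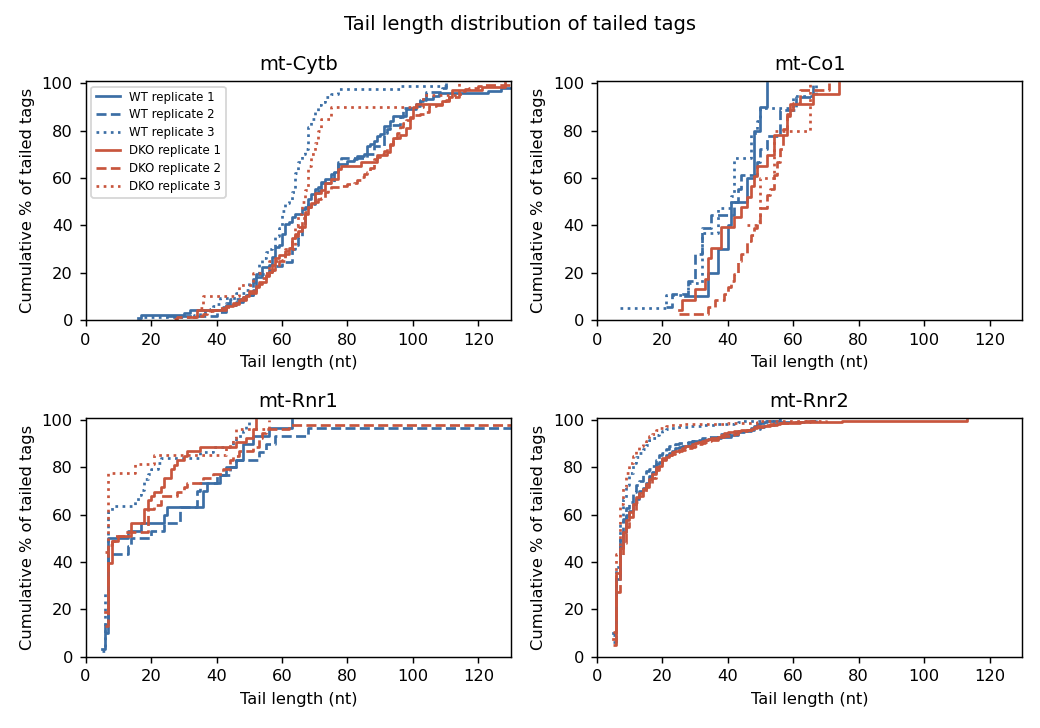
Cumulative share of tailed tags (%) by tail length (nt) for 4 members, 1 line per library. The x axis stops at 130 nt. More than 40% of the tailed tags of both ribosomal RNAs end by 9 nt in every library, while the mRNA curves rise mostly between 30 and 100 nt. The mt-Cytb curves of the libraries numbered 3 (dotted) lack the upper part seen in the others.

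These 2 ribosomal RNAs supplied most of the shortest tails among the tags linked to gene IDs. Among all links to tags with a tail of 5 to 9 nt, mt-Rnr2 alone made up 55.5%, 55.6% and 70.3% in WT and 64.3%, 69.6% and 68.6% in DKO. With mt-Rnr1 added the share was 60.4% to 76.4%. Of tails of 30 nt or more they made up only 0.227% to 0.462%. The mRNA members supplied at most 0.134% of the shortest tails, which is 1 mt-Co1 tag.

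The shortest tails depended on where the length was read. The deposited tables list a length before mapping and one after mapping, and the latter takes no value from 1 to 4 nt. Of the 130 mt-Rnr1 tails of 5 to 9 nt after mapping, 118 (90.8%) had fewer than 5 nt before mapping, and 51 had 0. Of the 1665 such mt-Rnr2 tails, 502 (30.2%) had fewer than 5 nt before mapping, and 170 had 0. Among all other IDs the share with fewer than 5 nt was 43.6% of 741. The short mt-Rnr1 class is therefore mostly made of tags with 0 to 4 A listed before mapping, whereas mt-Rnr2 had a peak of its own at 5 nt on that scale, with 7.61% to 14.4% of its tags. Tails of 10 nt or more had at least 5 nt before mapping in all 4 members. With lengths before mapping, where only tags of at least 5 nt on that scale enter, the mt-Rnr1 pairs moved most. The difference of mt-Cytb from mt-Rnr1 went from 53.8 to 37.6 nt and that of mt-Co1 from mt-Rnr1 from 30.03 to 13.5 nt. The difference of mt-Rnr1 from mt-Rnr2 went from 4.05 to 19.8 nt. These values rest on few mt-Rnr1 tags, since on that scale mt-Rnr1 did not reach 10 tags of at least 5 nt in every library. How close the mt-Rnr1 tails were to those of mt-Rnr2 thus depended on that choice, while the sign of each pair did not.

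**Figure D2:**
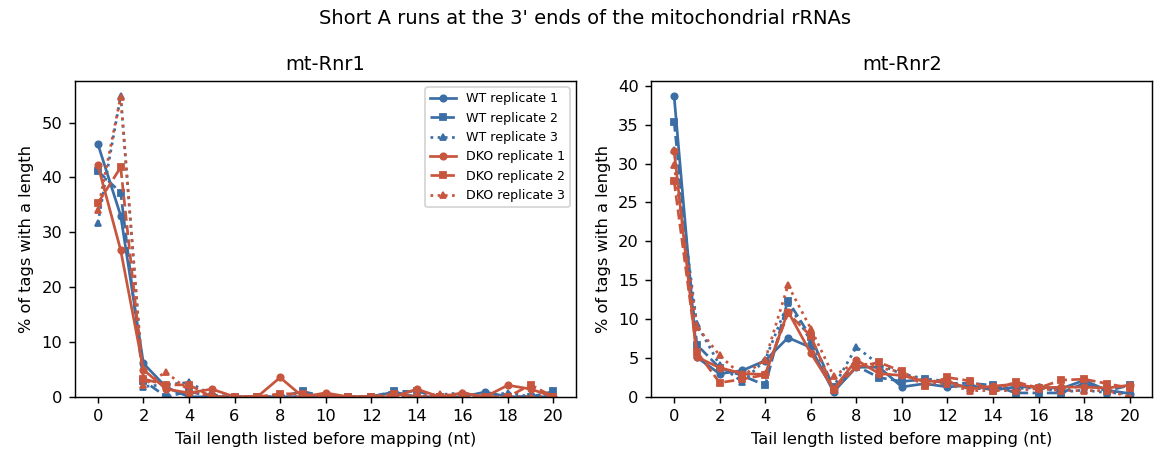
Share of tags with a length (%) by the tail length listed before mapping (nt, 0 to 20), 1 line per library, for both ribosomal RNAs. In mt-Rnr1 most tags stand at 0 or 1 nt, and in mt-Rnr2 a second peak stands at 5 nt.

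Untailed ends were the rule among the mt-Rnr1 tags caught and common among those of mt-Rnr2. Whether joining the adaptor favours some 3′ ends over others was not tested. Of mt-Rnr1 tags with a length, 73.9%, 70.6% and 83.6% were untailed in WT and 62.7%, 71.2% and 84.9% in DKO. Of mt-Rnr2 tags, 43.1%, 41.3% and 37.8% were untailed in WT and 33.5%, 30.4% and 36.4% in DKO. Of mt-Cytb tags, 2.08%, 3.39% and 4.40% were untailed in WT and 1.43%, 1.26% and 9.09% in DKO, the last being 2 of 22 tags (95% exact Clopper-Pearson interval 1.12% to 29.2%). For mt-Co1, 4 tags were untailed in all. Such intervals cover counting error only. Whether PCR copies of the same RNA end entered as separate tags was not tested.

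All other IDs together had 4.68% to 6.48% untailed tags in the libraries numbered 1 and 2 and 28.5% and 23.0% in those numbered 3. The mt-Rnr2 share did not follow that step: its values in the libraries numbered 3 lay inside the range of the others. The mt-Rnr1 shares in those 2 libraries were above its others. Together the ribosomal RNAs made up 20.5% to 25.8% of all untailed links.

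The untailed ends of mt-Rnr1 were of 2 main kinds. Of 753 untailed mt-Rnr1 tags, 420 had exactly 1 A before mapping and 315 had none. The 67 tags whose string ended in tggaataatA, as printed above, were among the latter, although their last base is an A. For the 420 tags no base before the A is listed. The single A was carried by 32.2%, 35.3% and 53.7% of mt-Rnr1 tags with a length in WT and by 25.4%, 40.2% and 52.0% in DKO. The genotypes overlapped, and the libraries numbered 3 were the highest of each (difference of DKO from WT, -0.949 percentage points within numbers 1 and 2 and -1.78 within number 3). On mt-Rnr2 the single A was carried by 2.74% to 7.17% of tags, on other IDs by 0.0505% to 0.702%, and on 0 tags of mt-Cytb and mt-Co1. In each of the 6 libraries the share was higher on mt-Rnr1 than on mt-Rnr2 and on the other IDs together.

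**Figure D3:**
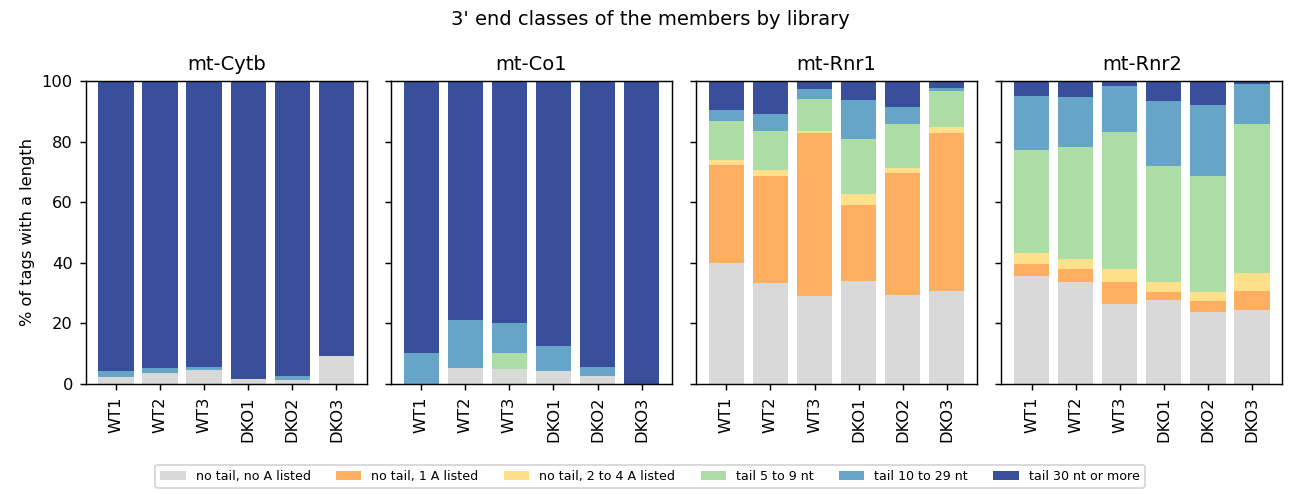
Share of tags with a length (%) in 6 classes of 3′ end, by library (WT1 to WT3, DKO1 to DKO3), for 4 members. Tails of 30 nt or more (dark blue) make up most of the mRNA bars, a single A without a tail (orange) 25.4% to 53.7% of mt-Rnr1, and tails of 5 to 9 nt (green) 34.0% to 49.5% of mt-Rnr2.

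Uridine on tails was seen mostly on the ribosomal RNAs among the members. A tailed tag counted as uridylated when a U was among the bases that the deposited tables list as added. For mt-Rnr1 this held for 6.67%, 13.3% and 11.4% of tailed tags in WT and 5.66%, 9.43% and 18.5% in DKO. For mt-Rnr2 it held for 6.32%, 5.91% and 9.44% in WT and 6.19%, 7.48% and 9.21% in DKO. The genotypes overlapped for both RNAs. DKO minus WT was -2.45 percentage points within numbers 1 and 2 and 7.15 within number 3 for mt-Rnr1, and 0.722 and -0.239 for mt-Rnr2. For mt-Cytb it held for 1 of 484 tailed tags and for mt-Co1 for 1 of 111. By the log odds of U, mt-Rnr1 and mt-Rnr2 ranked highest and next highest of the 44 IDs tested, and mt-Cytb at rank 2 from the lowest. Without tags whose string holds UAUA, described next, mt-Rnr1 stayed at rank 1 and mt-Rnr2 stood at rank 3.

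The added strings differed between the ribosomal RNAs. On mt-Rnr2 the commonest were U (55 tailed tags), UAUAU (51), UUU (33) and UU (28), and on mt-Rnr1 they were U and UA (11 each). The string UAUAU occurred on 55 mt-Rnr2 tags in all, in all 6 libraries, with a median tail of 18 nt on its tailed tags and 37 of them at 17 to 19 nt. It occurred on 0 tailed tags of other IDs. Whether these bases are encoded was not tested. Without tags whose string holds UAUA, the mt-Rnr2 share with U was 4.81% ± 1.66 (SD, n = 3) in WT and 5.76% ± 0.992 in DKO.

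Uridine was also counted on the shortest tails alone. Among tails of 5 to 9 nt, U was listed in WT on 6.83%, 6.04% and 10.3% of mt-Rnr2 tags, and in DKO on 8.77%, 9.79% and 9.14%. Among other IDs it was listed on 32.5%, 22.6% and 19.8% in WT and on 21.4%, 24.2% and 12.5% in DKO. In each of the 6 libraries mt-Rnr2 was below the other IDs together. For mt-Rnr1 the share was 13.3%, 23.1% and 17.9% in WT, against 11.5%, 18.5% and 23.8% in DKO, on 13 to 28 such tags per library. It was below the other IDs in 4 libraries and above them in WT replicate 2 and DKO replicate 3.

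No member's tail length passed the test between genotypes. Over the 44 IDs tested with limma, the log2 change in mean tail length, DKO against WT, was -0.23 (SE 0.23, adjusted p = 0.76) for mt-Rnr1. By the same limma fit it was 0.03 (SE 0.17, adjusted p = 0.88) for mt-Rnr2 and 0.08 (SE 0.13, adjusted p = 0.76) for mt-Cytb. The background was 0% of 44 IDs called and 2 with an unadjusted limma p under 0.05, and 42 of 44 IDs (95.5%) had a higher mean in DKO. The median log2 change over those 44 was 0.12. The median of the 3 members was 0.03. In genotype means, mt-Cytb had 65.7 nt ± 5.70 (SD, n = 3) in WT and 69.1 nt ± 4.69 in DKO, mt-Rnr1 14.7 nt ± 3.42 and 12.6 nt ± 2.99, and mt-Rnr2 9.45 nt ± 1.08 and 9.72 nt ± 1.68.

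Within library numbers the signs were steadier for mt-Rnr1 and mt-Cytb than for mt-Rnr2, although no label states a pairing by number. In 3 of 3 pairs of the same number mt-Rnr1 had the lower mean in DKO, by -2.35 nt (DKO minus WT) within numbers 1 and 2 and -1.68 nt within number 3. In 3 of 3 such pairs mt-Cytb had the higher mean in DKO, by 2.89 and 4.55 nt. The mt-Rnr2 mean was higher in 2 of 3 pairs, by 0.616 nt within numbers 1 and 2, and differed by -0.444 nt within number 3. The mt-Rnr1 sign depended on where the length was read. Before mapping, over its tailed tags with more than 0 nt, the mean was 13.19, 19.86 and 7.75 nt in WT. In DKO it was 13.24, 13.24 and 4.51 nt, so the pair numbered 1 was not lower in DKO. With the replicate number as a limma block, the log2 change of mt-Rnr1 had an SE of 0.069 and an adjusted p of 0.25, and that of mt-Cytb an SE of 0.069 and an adjusted p of 0.50, so neither passed. On simulated data the limma test without the block recovered 6.67% of 1.2-fold and 53% of 1.5-fold changes in tail length over 44 IDs. That simulation changed a fixed part of the IDs and held no step shared by libraries of the same number. Its shares may therefore be too high for these data.

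The mt-Co1 tails were longer in every DKO library than in every WT library. The means were 39.1 nt ± 2.76 (SD, n = 3) in WT and 48.3 nt ± 4.18 in DKO, a difference of 9.20 nt (exact permutation p = 0.1, two-sided, the smallest that 3 against 3 allows). The median tails did not overlap either, at 43.5, 42.5 and 41 nt in WT, against 46, 52 and 50 nt in DKO. Nor did the share of tailed tags with at least 30 nt, at 90%, 83.3% and 84.2% in WT, against 91.3%, 97.2% and 100% in DKO. Mean, median and share were read from the same tailed tags, 10, 18 and 19 in WT and 23, 36 and 5 in DKO. Over all tags with a length, untailed ones included, the share of at least 30 nt overlapped between genotypes. It was 90%, 78.9% and 80% in WT, against 87.5%, 94.6% and 100% in DKO. Restricted to numbers 1 and 2 the means differed by 5.96 nt, and within number 3 by 15.7 nt, where the DKO library had 5 tags.

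Because of that library, the limma fit over all 6 libraries held mt-Co1 only when the minimum was lowered to 5 tailed tags, an alternative chosen after seeing the data. Over the 76 IDs then tested its log2 change was 0.30 (SE 0.13, unadjusted p = 0.051, limma adjusted p = 0.77), which did not pass. At the usual minimum of 10, limma gave 0.25 without DKO replicate 3 (68 IDs, adjusted p = 0.65). Without both libraries numbered 3 it gave 0.20 (122 IDs, limma adjusted p = 0.77). In the fit with at least 5 tailed tags, 13.2% of IDs, 10 of 76, had all DKO libraries above all WT libraries, as mt-Co1 did. With at least 10 tags the share was 11.4%, 5 of 44, and none of the 3 members was among them. Longer mt-Co1 tails in DKO were therefore a pattern that 9 other IDs showed too, and the difference did not pass the test across IDs.

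The share of untailed mt-Rnr2 ends was lower in every DKO library than in every WT library. It was 40.7% ± 2.73 (SD, n = 3) in WT and 33.4% ± 3.04 in DKO (exact permutation p = 0.1, the smallest possible). Restricted to numbers 1 and 2, DKO minus WT came to -10.3 percentage points, but to -1.33 within number 3, where the intervals of both libraries overlap (35.0% to 40.6% and 31.6% to 41.5%). In limma over 51 IDs, the log2 change in the odds of being untailed was -0.45 (SE 0.78, adjusted p = 0.94), which did not pass. The limma fit draws the variance of each ID toward that of all IDs tested. With the replicate block the SE was 0.80 for mt-Rnr1, mt-Rnr2 and mt-Cytb alike. This SE and p therefore reflect the spread of other IDs too, not that of mt-Rnr2 alone. The background was 0% called, with 0 IDs under an unadjusted limma p of 0.05, and 3.92% (2 of 51 IDs, mt-Rnr2 being 1) with every DKO library below every WT library. The reverse held for 1.96% of IDs, and 39.2% had higher odds in DKO, while the fitted changes of all 3 members were negative. For mt-Rnr1 the log2 change in odds was -0.19 (SE 0.85) and for mt-Cytb -0.17 (SE 0.96), both with an adjusted limma p of 0.94. Their untailed shares, DKO minus WT, differed in sign between library numbers: -5.31 percentage points within numbers 1 and 2 and 1.33 within number 3 for mt-Rnr1, and -1.39 and 4.70 for mt-Cytb. On simulated data this test recovered 0% of 2-fold and 7.50% of 4-fold changes in odds over 51 IDs, so it could not show changes of that size.

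Uridylation did not pass the test either. In limma over 44 IDs the log2 change in the odds of U was -0.04 (SE 0.64) for mt-Rnr1, 0.09 (SE 0.55) for mt-Rnr2 and -0.17 (SE 0.79) for mt-Cytb, each with an adjusted p of 0.97. The background was 0% called, with 3 of 44 IDs under an unadjusted limma p of 0.05. The odds were higher in DKO for 47.7% of IDs, and 4.55% had every DKO library below every WT library, none of them a member. On simulated data this test recovered 5.83% of 2-fold and 29% of 4-fold changes in odds over 44 IDs.

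The tag levels of the ribosomal RNAs moved with the library number. Per 10000 linked tags, mt-Rnr2 had 266.9, 339.2 and 1175 in WT and 379.2, 356.5 and 740.5 in DKO. By the same measure mt-Rnr1 had 67.8, 86.4 and 276.9 in WT and 66.1, 74.7 and 348.1 in DKO. Both ribosomal RNAs were far higher in the libraries numbered 3, in WT and in DKO alike. DKO minus WT for mt-Rnr2 was 64.8 within numbers 1 and 2 but -434.2 within number 3. For mt-Rnr1 it was -6.69 and 71.3, so the sign differed between the library numbers for both.

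The mRNAs did not share that step in both genotypes. For mt-Cytb there were 52.5, 47.7 and 91.3 tags per 10000 in WT and 31.5, 62.6 and 42.3 in DKO. For mt-Co1 there were 5.47, 15.3 and 20.1 in WT, against 10.8, 14.9 and 9.62 in DKO. Both mRNAs were highest in the WT library numbered 3, but neither in the DKO one. DKO minus WT was -3.03 within numbers 1 and 2 and -48.98 within number 3 for mt-Cytb, and 2.42 and -10.4 for mt-Co1. The genotypes overlapped for all 4 members. Over the 170 IDs tested for tag count, 8.82% had every DKO library above every WT library and 7.65% the reverse. A higher count in DKO was found for 45.9%.

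**Figure D4:**
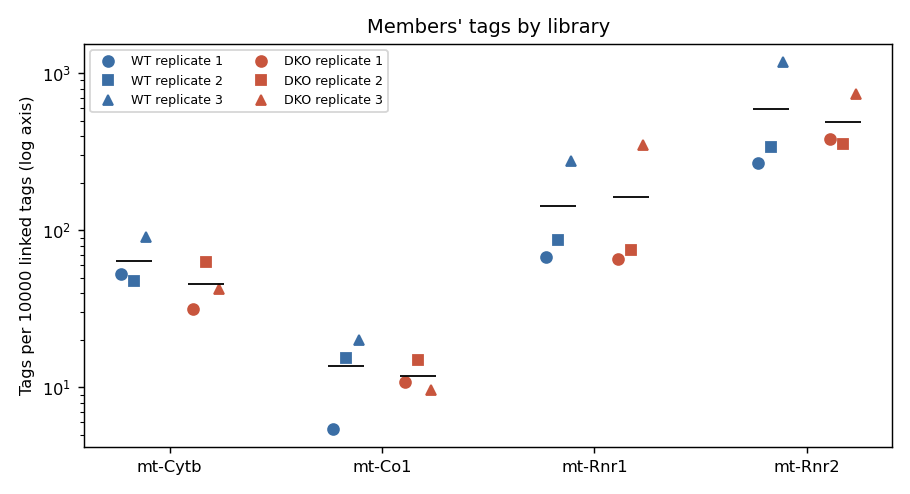
Tags per 10000 linked tags (log axis) for 4 members by library. Colour gives the genotype, shape the replicate number, and the horizontal line the genotype mean. The triangles of both ribosomal RNAs (libraries numbered 3) lie above the other points of each genotype.

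In edgeR's quasi-likelihood test on tailed tags over 170 IDs, none of the 4 members passed. The log2 change, DKO against WT, was -0.65 (SE 0.48, adjusted p = 0.65) for mt-Cytb and -0.29 (SE 0.55, adjusted p = 0.88) for mt-Co1 in that edgeR fit. It was 0.04 (SE 0.58, adjusted p = 0.99) for mt-Rnr1 and -0.32 (SE 0.63, adjusted p = 0.89) for mt-Rnr2, also by edgeR. The background was 0% of 170 IDs called and 13 with an unadjusted edgeR p under 0.05, and the median log2 change over all IDs was -0.05, against -0.31 over the 4 members. On simulated data the edgeR test recovered 22.0% of 2-fold and 86.8% of 4-fold changes over 170 IDs. That simulation gave every ID the same fixed dispersion and held no step between library numbers. Its shares may therefore be too high for these data. Blocking on the replicate number, edgeR called 3 of 170 IDs (1.76%), none of them a member. In that fit mt-Rnr2 moved from -0.32 to 0.05, so the sign of its change depended on the model.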

How the data were processed

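The members and lists were chosen with earlier results of these data known. Per the submitters' processing notes the authors used GSNAP, bedtools and mm10/GRCm38. The tail caller, annotation release and flag meanings were not given in the sources used here. For each tag, the deposited tables list whole-number read counts, tail lengths in nt before and after mapping (0 for untailed, -1 for no length) and added bases, and link tags to gene IDs. Recounted tailed tags equalled the deposited counts in 32 of 32 member values, and mean tails lay within 7.1e-14 nt.

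Tags were joined to IDs, each counting under every ID it was linked to. A tail length after mapping of at least 5 nt counted as tailed. The 10000 linked tags that levels refer to are those of the library. All 8 members are named. Other mitochondrial genes, nuclear subunits and marker lists are not analysed here, because 0 of 49997 rows of the RefSeq table carry an Ensembl ID. IDs ranked by likeness to the members are not given, since the libraries fall into separate clusters.

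Mean tail (log2), odds of being untailed and odds of U (log2 with pseudocount 0.5) were tested with limma 3.58.1 over IDs that had 10 or more tags in each library. For tailed tag counts the quasi-likelihood test of edgeR 4.0.16 was used, with TMM scaling and filterByExpr. P-values were adjusted by Benjamini-Hochberg, with calls at 0.05. Tests were run on simulated data, in which a fixed part of the IDs was changed and libraries of the same number shared no step. The shares recovered may therefore be too high for these data. Genotypes were compared in 60 single values (4 members, 15 measures), where exact permutation tests cannot go below p = 0.1. Of these, 5 did not overlap: the mt-Rnr2 untailed share, and mt-Co1 tail measures read from the same tags. Over all IDs tested, every DKO library was above every WT library, or below, in 11.4% and 0% for tail length and 8.82% and 7.65% for tag count. For the odds of being untailed it was 1.96% and 3.92%, and for the odds of U 0% and 4.55%. Genotype was the only term in the main tests, since no label states a pairing. Deviations of libraries with the same number correlated at 0.14, 0.21 and 0.38 for tag counts and 0.16, 0.29 and 0.41 for tail length. Across numbers 1 and 2 the correlations were 0.29 and 0.38 for tag counts and 0.42 and 0.064 for tail length. Between number 3 and the other numbers they were negative. Only the libraries numbered 3 thus stood apart, and the number was used as a block in alternative fits only. DESeq2 1.42.0 served as an alternative. Software was Python 3.11.15 (SciPy 1.17.1, pandas 2.3.3) and R 4.3.3.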

Additional observations from a re-analysis of the deposited data

How the results depend on the processing

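No member passed a threshold between genotypes in any of the 180 values under alternatives (smallest adjusted p 0.19 with limma, edgeR or DESeq2). Signs were less stable, and the causes were not tested. With each library centred on its median, the log2 tail change turned to -0.13 for mt-Rnr2 and -0.089 for mt-Cytb. With lengths before mapping the limma fit of tail length did not hold mt-Rnr1, which had too few tags. For tag counts, mt-Rnr2 turned to 0.054 with the replicate block and mt-Co1 to 0.0073 with library totals alone. Without both libraries numbered 3, mt-Rnr1 turned to -0.033, mt-Rnr2 to 0.32 and mt-Co1 to 0.19. The odds of being untailed turned to 0.067 for mt-Rnr1 with lengths before mapping, and the odds of U to 0.016 for mt-Cytb with pseudocount 1. Leaving out 1 library, the tail change spanned -0.42 to -0.024 for mt-Rnr1, -0.065 to 0.18 for mt-Rnr2 and 0.0019 to 0.13 for mt-Cytb. The tag count change spanned -0.67 to 0.48 for mt-Rnr1, -1.01 to 0.84 for mt-Rnr2, -0.71 to 0.17 for mt-Co1 and -0.96 to -0.26 for mt-Cytb. The odds of being untailed spanned -0.67 to 0.19 for mt-Rnr1 and -1.07 to 0.40 for mt-Cytb, and the odds of U -0.52 to 0.38 for mt-Rnr1, -0.075 to 0.30 for mt-Rnr2 and -0.96 to 0.51 for mt-Cytb.

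For tag count edgeR called 0 to 8 IDs with 1 library left out (8 of 241 without WT replicate 3), 3 with the replicate block and 30 of 241 without both libraries numbered 3. The block changed no other call. The difference of mt-Cytb from mt-Rnr1 was 52.9 to 54.9 nt when 1 library was left out and 55.0 nt without both libraries numbered 3, and from mt-Rnr2 it was 57.1 to 59.2 nt and 60.0 nt. The exact permutation p was then 0.0625 and 0.125, the smallest that 5 and 4 libraries allow. The scaling alternative left out the members only, since other mitochondrial IDs could not be named. Depth limits mt-Co1 (5 tailed tags in DKO replicate 3) and leaves mt-Co2, mt-Co3, mt-Atp6 and mt-Atp8 untested.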
